A study of Mus musculus with 24 samples.

Results

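The cytosolic ribosomal protein genes were described across 24 mouse liver libraries. They were taken by symbol: protein-coding genes named Rpl or Rps followed by a digit, with Rplp0, Rplp1, Rplp2 and Rpsa. Ribosomal protein S6 kinase genes (10) and symbols marked as pseudogenes (Rps6-ps4, Rpl31-ps12 and Rpl34-ps1) were left out. This gave 89 of the 18171 genes in the table, of which 83 passed the filter on low values (an FPKM, fragments scaled by transcript length and by the fragments of the library, of at least 1 in at least 6 libraries). The 6 below it were Rpl10l, Rpl32l, Rpl39l, Rpl3l, Rps23rg1 and Rps27rt. The symbol rule also took Rps19bp1, a binding partner of Rps19 that is not a ribosomal subunit, and missed Fau and Rack1, which encode subunits under other names.

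The libraries were total RNA of whole liver from C57BL/6 mice, 12 labelled as overexpressing L2 delta13 (L2d13) and 12 wild type (WT). Each genotype came in 2 sets of 6, called set 2 and set 4 after a digit in the sample names. What the digit stands for is not in the labels. The 4 groups were L2d13 set 2 (replicates 1 to 6), WT set 2 (1 to 6), L2d13 set 4 (7 to 12) and WT set 4 (7 to 12). The labels name neither the promoter that drives L2d13 nor the age of the mice, and do not say that each library is a separate animal, so the p-values measure the spread between libraries. Loxl2, the gene whose splice forms carry the L2 name, had 0.83 to 2.26 FPKM in L2d13 livers, against 0.36 to 1.26 FPKM in WT livers.

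Each ribosome holds a single copy of most of these proteins, bound to the ribosomal RNA of the small (Rps) or the large (Rpl) subunit, and surplus protein is degraded. Their mRNAs are abundant, short and begin with a run of pyrimidines at the cap (a 5' terminal oligopyrimidine, or TOP, tract), through which mTOR signalling and the binding protein Larp1 control their translation. A liver cell makes secreted proteins in bulk and is rich in ribosomes.

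Promoter sequences from RefSeq (GRCm38.p6) were found for 69 of the 89 genes. The windows shown here run from 40 bases before to 20 bases after the annotated start and show how closely the pyrimidine run lies to it; capitals mark a run of C and T found by a search of each window for a few TOP-like motifs. Rpl15, Rpl28, Rps6 and Rps10 have the run at or near the start. Rps27 and its copy Rps27rt share the bases from the run onwards and differ before it, while none of the motifs was found in the window of Rps27l. For Rps27l the promoter entry at the highest coordinate was taken, and for the other genes shown the first listed entry. Any other annotated start of these genes is not shown. Rpl4 and Rpl5, genes with higher levels in L2d13 livers, have theirs upstream of the annotated start.
Rpl15, chr14:18270967-18271026, minus strand: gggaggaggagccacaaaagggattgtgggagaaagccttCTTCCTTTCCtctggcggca
Rpl28, chr7:4792925-4792984, plus strand: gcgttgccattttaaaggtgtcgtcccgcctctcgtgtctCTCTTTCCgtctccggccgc
Rps6, chr4:86857348-86857407, minus strand: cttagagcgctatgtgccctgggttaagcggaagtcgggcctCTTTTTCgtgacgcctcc
Rps10, chr17:27635225-27635284, minus strand: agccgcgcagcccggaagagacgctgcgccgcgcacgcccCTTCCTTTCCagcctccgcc
Rps27, chr3:90213629-90213688, minus strand: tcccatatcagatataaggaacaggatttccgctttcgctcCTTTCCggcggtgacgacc
Rps27rt, chr9:114982720-114982779, minus strand: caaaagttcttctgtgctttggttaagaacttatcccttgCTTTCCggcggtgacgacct
Rps27l, chr9:66946373-66946432, plus strand: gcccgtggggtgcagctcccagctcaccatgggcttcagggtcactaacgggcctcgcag
Rpl4, chr9:64173347-64173406, plus strand: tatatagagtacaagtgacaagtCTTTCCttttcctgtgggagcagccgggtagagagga
Rpl5, chr5:107900488-107900547, plus strand: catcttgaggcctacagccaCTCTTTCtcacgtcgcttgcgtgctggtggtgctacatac

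On the sense strand, from 60 bases before to 50 after the start, CTTTCC was found in 21 of these 69 genes (30.4%), against 792 of all 14128 protein-coding genes of the table with a promoter (5.61%). CTCTTTC, which overlaps it in CTCTTTCC, was found in 12 of the 69 (17.4%), against 241 of the 14128 (1.71%). CCGGAAG, on either strand of the whole window from 250 bases before to 50 after the start, was found in 26 of the 69 (37.7%), against 15.6% of the 14128, 21.3% of the 8488 tested genes with a promoter and 42.3% of 26 proteasome genes. Of the 8 genes called higher in L2d13 livers that had a promoter entry, CTTTCC was found in 2 and CCGGAAG in 1. These 3 motifs were chosen after promoter sequences had been seen, and a match is a description of letters, not of a used site. Further motifs were counted. The shorter CTTCC, in the window of CTTTCC, was found in 46.4% of the 69, against 26.2% of the 14128. Of 12 genes outside the ribosome known to carry TOP tracts that had a promoter entry, that window held CTTTCC in 0 and CTCTTTC in 3.

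Summed over the 89 genes, the level was 24155 to 47413 FPKM in L2d13 set 2 livers, against 17649 to 32366 FPKM in WT set 2 livers. It was 18562 to 29450 FPKM in L2d13 set 4 livers, against 22022 to 26311 FPKM in WT set 4 livers. The groups overlapped in both sets. A single library stood apart: L2d13 set 2 replicate 3 had 47413 FPKM, or 7.45% of all its FPKM, where the other 23 libraries had 3.08% to 4.81%. Without it the mean of L2d13 set 2 was 25529 ± 1730 FPKM (SD, n = 5), against 29176 ± 9067 FPKM with it (n = 6).

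**Figure D1:**
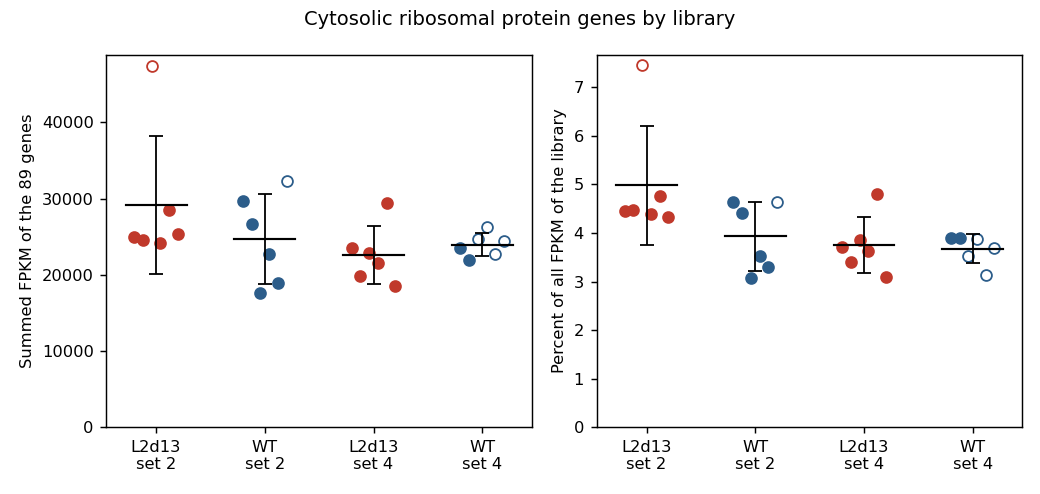
Summed FPKM of the 89 ribosomal protein genes (left) and their percent of all FPKM of the library (right), per library, with the mean and SD of each group of 6. Open points are the 6 libraries in which a fragment was worth more than 2% above the median library; L2d13 set 2 replicate 3, at 47413 FPKM and 7.45%, lies above all others.

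The marker sums of 6 other cell types were also highest in that library, and those of hepatocytes lowest. The summed level of 7 red cell markers was 3566 FPKM in it, against a median of 1024 FPKM in the other 23 libraries. For 8 lymphocyte markers the sums were 21.1 and 4.88 FPKM, for 10 Kupffer and myeloid markers 363 and 176 FPKM, for 6 endothelial markers 166 and 56.8 FPKM, for 7 stellate cell and fibroblast markers 190.4 and 66.1 FPKM, and for 5 bile duct markers 123 and 24.25 FPKM. The sum of 6 hepatocyte markers was 28389 FPKM in it, against a median of 53830 FPKM. That of 6 markers of proliferating cells was 16.5 FPKM, against a median of 19.2 FPKM, and no marker of these lists was at 0 in all libraries. The part of other cells in the ribosomal protein levels of this library was not tested, and in bulk liver fewer cells of a type cannot be told apart from less RNA per cell. The counts of calls below and the values it changes most are also given without it.

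A further feature of the libraries touched these genes. From the smallest steps between low values, the FPKM that a single fragment adds was estimated relative to the median library. It lay between 0.960 and 1.018 in 18 libraries and between 1.03 and 1.30 in 6: L2d13 set 2 replicate 3, WT set 2 replicate 6 and WT set 4 replicates 9 to 12. So 1 of these 6 libraries was L2d13 and 5 were WT. The share of all FPKM in Mup genes, which encode abundant urinary proteins, was 9.06% to 33.6% in the 6 and 5.31% to 23.2% in the 18.

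Over both sets, 10 of the 83 tested genes were called higher in L2d13 livers and 0 lower (limma on log2(FPKM + 1), with set as a term, and Benjamini-Hochberg adjustment over 10532 genes; called at an adjusted p under 0.05). At an unadjusted p under 0.05, 13 were higher and 2 lower. Of all tested genes, 25.9% were called higher and 4.86% lower, so 10 of 83 was a smaller share than that of all genes. The median log2 difference was 0.06 for the ribosomal protein genes, 51 of them above 0, and 0.12 for all tested genes. Without L2d13 set 2 replicate 3 it was -0.02 with 39 above 0, and without WT set 2 replicate 3 it was -0.01 with 41 above 0, so the sign of this median rests on single libraries. Of all tested genes 69.7% were above 0. The ribosomal protein values ran from -0.37 (Rps27l) to 0.54 (Rpl3). Median-of-ratios scaling shifts the median of all genes from 0.12 to 0.00. The calls were then 2 higher (Rpl3 and Rpl5) and 3 lower (Rps27l, Rps19bp1 and Rps2). Over all 10532 tested genes, 1215 were then called higher and 1164 lower. In the fit as reported, 3 of 6 endothelial markers and 2 of 10 Kupffer and myeloid markers were called higher (medians 0.45 and 0.54). Of stellate cell and fibroblast markers 1 of 7 was called higher, and 1 of 6 hepatocyte and 1 of 5 red cell markers lower. No tested lymphocyte, bile duct or proliferation marker was called. The part of other cells in the calls was not tested.

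**Figure D2:**
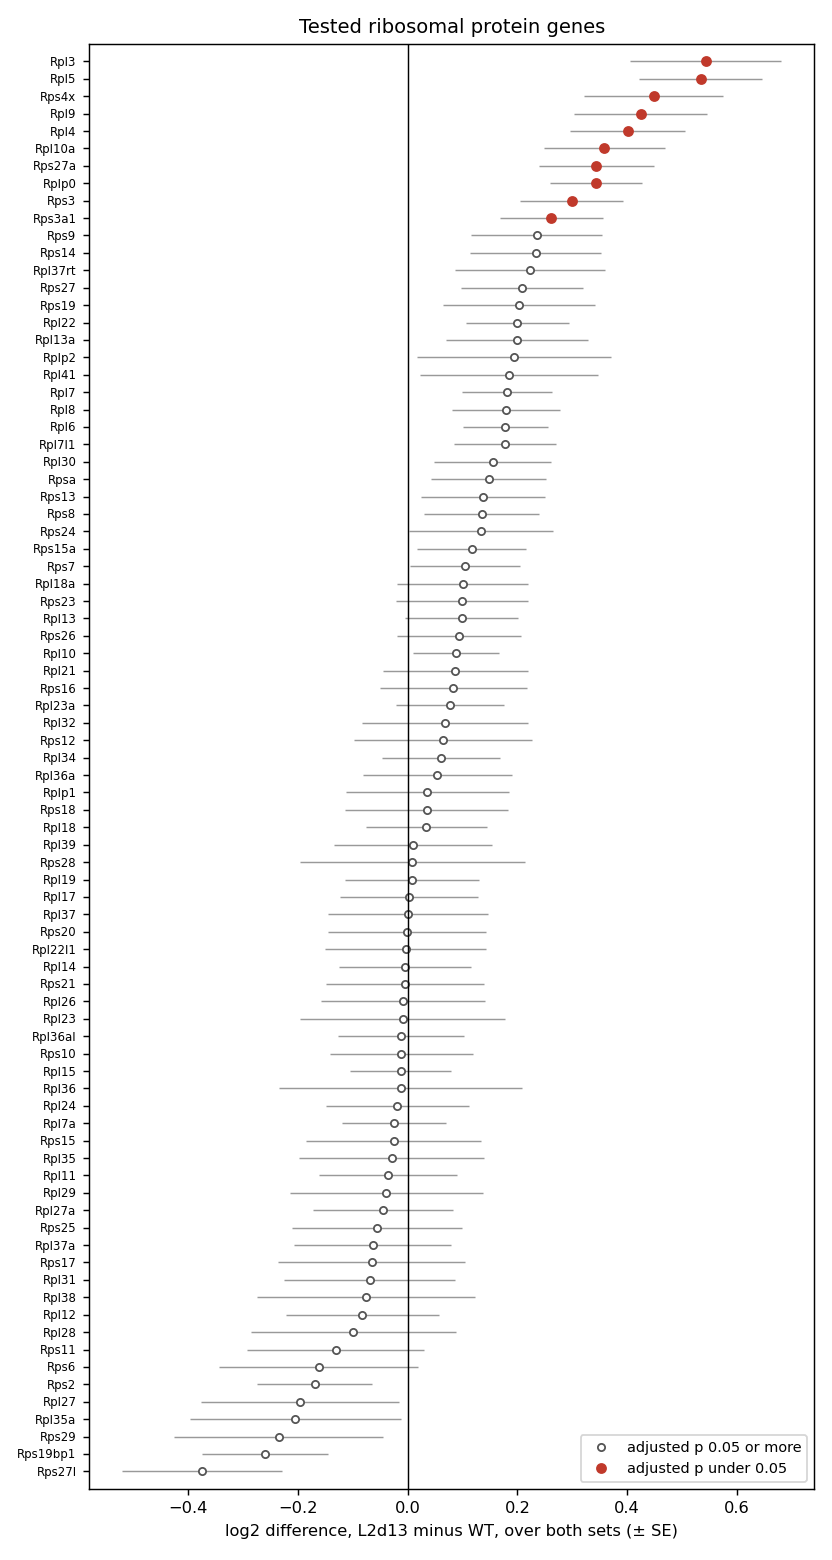
Log2 difference of FPKM + 1, L2d13 minus WT over both sets, with its SE, for 82 of the 83 tested genes from the highest (top) to the lowest. Filled points are the 10 genes with an adjusted p under 0.05, from Rpl3 (0.54) to Rps3a1 (0.26); none of the genes below 0 was called.

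The large subunit gave 6 of the 10. Rpl3, which reaches towards the peptidyl transferase centre, had 197 to 226 FPKM in L2d13 set 2 livers (median 200.3), against 68.3 to 168 FPKM in WT set 2 livers (median 154). In set 4 it had 143 to 175 FPKM in L2d13 livers (median 159), against 64.2 to 160.3 FPKM in WT livers (median 129.7). The groups did not overlap in set 2 and overlapped in set 4. Its log2 difference was 0.54 ± 0.14 over both sets (SE; limma, adjusted p = 0.0046).

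Rpl5, which with Rpl11 carries the smallest ribosomal RNA into the ribosome and can bind Mdm2, showed the same order of groups. It had 269 to 307 FPKM in L2d13 set 2 livers (median 299.5), against 109 to 246 FPKM in WT set 2 livers (median 202). In set 4 it had 226 to 279 FPKM in L2d13 livers (median 238) and 128 to 227 FPKM in WT livers (median 184). Again the groups separated in set 2 alone, with the lowest L2d13 set 4 library just under the highest WT one. The log2 difference was 0.53 ± 0.11 (limma, adjusted p = 0.00099). Rpl3 and Rpl5 were the only genes of the 83 whose set 2 groups did not overlap with L2d13 above WT, a pattern held by 5.44% of all tested genes (0.560% had L2d13 below WT). In set 4 the groups of all 83 genes overlapped, where 4.86% of all tested genes had L2d13 above WT and 1.70% below.

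Rpl4, which lines the exit tunnel with a long loop, had 373 to 450.2 FPKM in L2d13 set 2 livers (median 402), against 192 to 377 FPKM in WT set 2 livers (median 320.3). In set 4 it had 327 to 415 FPKM in L2d13 livers (median 379.5) and 198 to 353 FPKM in WT livers (median 323). The groups overlapped by a few FPKM in set 2. Its log2 difference was 0.40 ± 0.11 (limma, adjusted p = 0.0056). The 3 others of the large subunit were Rpl9, the L1 stalk protein Rpl10a and Rplp0, with log2 differences of 0.42 ± 0.12, 0.36 ± 0.11 and 0.34 ± 0.08.

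Of the acidic stalk, which recruits elongation factors, the base protein Rplp0 was called and its partners were not. Rplp0 averaged 353 ± 49.3 FPKM in L2d13 livers and 280.2 ± 52.7 FPKM in WT livers (SD, n = 12 each; limma, adjusted p = 0.0035). Rplp1 averaged 729 ± 322 FPKM in L2d13 livers and 680 ± 118 FPKM in WT livers (log2 difference 0.04 ± 0.15, adjusted p = 0.88). Rplp2 averaged 287 ± 162 FPKM in L2d13 livers and 238 ± 60.1 FPKM in WT livers (0.19 ± 0.18, adjusted p = 0.43). In L2d13 set 2 replicate 3 these 3 genes stood at 471.3, 1702 and 790.2 FPKM, above every other library. Without it Rplp1 averaged 641 ± 105 FPKM in L2d13 livers (n = 11), below the 680 FPKM of WT livers (log2 difference -0.08), Rplp2 averaged 241 ± 35.3 FPKM (0.05) and Rplp0 342 ± 33.9 FPKM (0.32).

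The small subunit gave 4 of the 10. Rps4x, encoded on the X chromosome, had 323 to 448 FPKM in L2d13 set 2 livers (median 354), against 139.6 to 340.4 FPKM in WT set 2 livers (median 271). In set 4 it had 253 to 307 FPKM in L2d13 livers (median 273) and 139.6 to 305 FPKM in WT livers (median 209.6). The groups overlapped in both sets, and the log2 difference was 0.45 ± 0.13 (limma, adjusted p = 0.0093). Rps27a, made as a fusion with ubiquitin, was higher by 0.34 ± 0.11, Rps3 at the mRNA entry channel by 0.30 ± 0.09, and Rps3a1 by 0.26 ± 0.09. Rpsa, which also serves as a laminin receptor, averaged 270.5 ± 64.4 FPKM in L2d13 livers and 241.5 ± 39.3 FPKM in WT livers and was not called (0.15 ± 0.10, adjusted p = 0.30).

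The 10 called genes followed the other ribosomal proteins from library to library to different degrees. Each gene was correlated (Pearson's r) with the median of the other tested ones in each library. The r was -0.02 for Rpl3, 0.09 for Rpl5 and 0.10 for Rpl4, but 0.57 for Rps3a1, 0.64 for Rpl10a and 0.77 for Rps27a. In each library their median deviation was set against that of all 83 genes, on the log2 scale. It was -1.01 to -0.22 in the 6 libraries where a fragment was worth more FPKM and -0.14 to 0.34 in the other 18. The 10 were chosen for lower values in WT livers and 5 of the 6 libraries are WT, so part of this separation follows from the choice. Among WT libraries alone the 5 lay at -1.01 to -0.22 and the other 7 at -0.14 to 0.33. This split is not free of the choice either, which favours genes that are very low in some WT libraries. WT set 2 replicate 6 had both the highest FPKM per fragment (1.30) and the lowest relative level (-1.01). The 1 L2d13 library of the 6 was at -0.28. It is L2d13 set 2 replicate 3, where the 83 genes had a median log2 deviation of 0.90 from their means. There the 10 were on the whole low relative to the other genes, not relative to their own mean levels. What lies behind the relation of this relative level to FPKM per fragment was not tested.

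**Figure D3:**
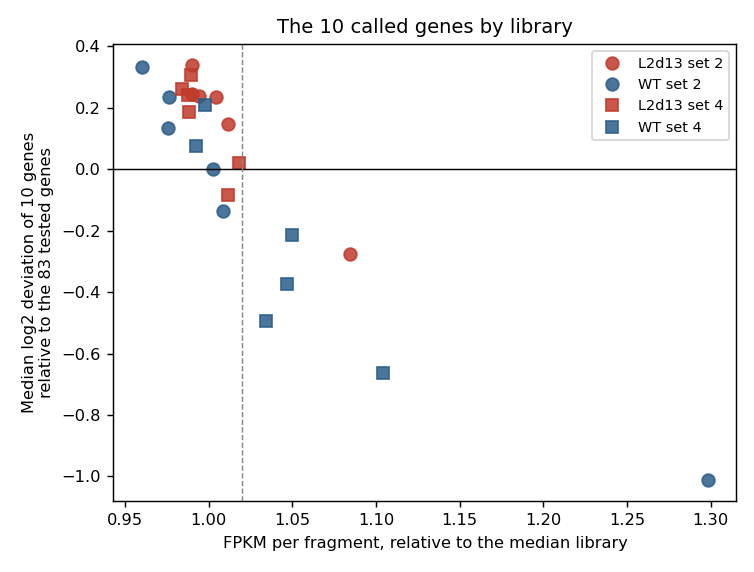
Median log2 deviation of the 10 called genes relative to that of the 83 tested genes (vertical) against the estimated FPKM per fragment relative to the median library (horizontal), per library; the dashed line is at 2% above the median. The 6 libraries right of the line, 5 of them WT, lie at -0.22 or lower, below the other 18; the genes were chosen for lower values in WT livers.

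Without these 6 libraries, 3 of the 10 remained called over both sets, where 1542 of all 10320 tested genes were called higher. The median log2 difference was then 0.09 with 71 of 83 genes above 0, against 0.06 for all tested genes. That is the reverse of the order over all 24 libraries. Rpl3 was then higher by 0.32 ± 0.07 (limma, adjusted p = 0.0024), Rpl5 by 0.32 ± 0.08 (adjusted p = 0.0077) and Rpl4 by 0.21 ± 0.07 (adjusted p = 0.047). Without L2d13 set 2 replicate 3 alone, 9 were called higher, all but Rps3a1 of the 10. The 2 called lower were Rps27l (-0.43 ± 0.14, limma, adjusted p = 0.024) and Rps19bp1 (-0.31 ± 0.11, adjusted p = 0.027). That fit called 2823 of all 10459 tested genes higher and 821 lower. Rpl3 and Rpl5 passed the threshold in the fit as reported and in all 38 other fits run, with log2 differences of 0.24 to 0.65 for Rpl3 and 0.24 to 0.64 for Rpl5. The highest adjusted p-values by limma were 0.048 for Rpl3 and 0.035 for Rpl5. Most of the 38 leave out 1 library at a time, and some cannot move these estimates, such as the fit with copies summed. The fits are therefore not independent.

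The called genes were longer on the whole than the others, with overlap. The coding sequence of the 10 was 468 to 1257 bases long (median 790.5), against 138 to 906 bases (median 436.5) in the other tested genes with a coding length. None of 27 genes under 400 bases was called, 2 of 31 from 400 to under 600 bases, and 8 of 24 of 600 bases or more. Across 82 genes, Spearman's rho of coding length with the log2 genotype difference was 0.22 in set 2 (0.44 without L2d13 set 2 replicate 3) and 0.53 in set 4. Over 10265 tested genes of all kinds it was -0.04 in set 2 and 0.16 in set 4. Genes of the same libraries are not independent, so no p is given.

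Within set 2 alone, 78 of the 83 genes were above 0 (median log2 difference 0.23), against 75.8% of all tested genes (median 0.16). Of these, 6 were called higher and 0 lower (20 and 0 at an unadjusted p under 0.05). That is 7.23% of the ribosomal protein genes, where 13.0% of all tested genes were called higher and 2.13% lower. Called higher were 0 under median-of-ratios scaling, 1 under quantile normalization and 23 with every library scaled to one FPKM sum. Over all 10532 tested genes these 3 scalings called 373, 413 and 2058 higher. The 6 were Rpl5 (0.61 ± 0.16, limma, adjusted p = 0.014), Rpl3 (0.59 ± 0.20, adjusted p = 0.046), Rpl9 (0.59 ± 0.17, adjusted p = 0.021), Rpl10a (0.50 ± 0.15, adjusted p = 0.029), Rps27a (0.44 ± 0.15, adjusted p = 0.048) and Rplp0 (0.36 ± 0.12, adjusted p = 0.046). Without L2d13 set 2 replicate 3 the median was 0.09, 61 genes were above 0, and Rpl5 and Rpl9 remained called. The count was also 2 without WT set 2 replicate 4, and 3 without L2d13 set 2 replicate 4, 5 or 6, L2d13 set 4 replicate 7, 8, 9, 10 or 12, WT set 2 replicate 3 or 5, or WT set 4 replicate 10. Without the 6 libraries named above, 6 genes were called, of which Rpl3, Rpl5 and Rpl9 were among the first 6. That fit called 1878 of all 10320 tested genes higher.

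Within set 4, 25 of the 83 genes were above 0, with a median log2 difference of -0.13, against 60.3% of all tested genes and a median of 0.08. By limma 0 were called in either direction, with 5 higher and 3 lower at an unadjusted p under 0.05; 10.3% of all tested genes were called higher and 2.97% lower. The highest values were those of Rpl3 (0.49 ± 0.20, adjusted p = 0.097), Rpl5 (0.46 ± 0.16, adjusted p = 0.056), Rpl4 (0.39 ± 0.15, adjusted p = 0.085) and Rps4x (0.39 ± 0.18, adjusted p = 0.15). The lowest was Rps27l (-0.48 ± 0.21, adjusted p = 0.12). Without WT set 2 replicate 6 or WT set 4 replicate 8, which changes the estimate of the spread or the group, 4 genes were called higher, with 1 lower in the first case, and without L2d13 set 4 replicate 11 there was 1 lower and 0 higher; without WT set 4 replicate 7 there was 1 higher. Without the 6 libraries, 4 of which were WT set 4, the median was -0.03, against -0.05 for all tested genes.

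Whether genotype acted alike in the sets was tested as set 4 minus set 2 of its effect, which called 0 of the 83 genes by limma, with 0 higher and 2 lower at an unadjusted p under 0.05; it called 0.152% of all tested genes. Of the 83 differences 82 were below 0, with a median of -0.32, against -0.08 for all tested genes. Without L2d13 set 2 replicate 3 the median was -0.19, and 7 differences were above 0. Without the 6 libraries the medians were -0.18 for these genes and -0.18 for all tested genes. Rpl29 was the exception above 0, at 0.58 ± 0.34, and its reads are shared with a copy described below.

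**Figure D4:**
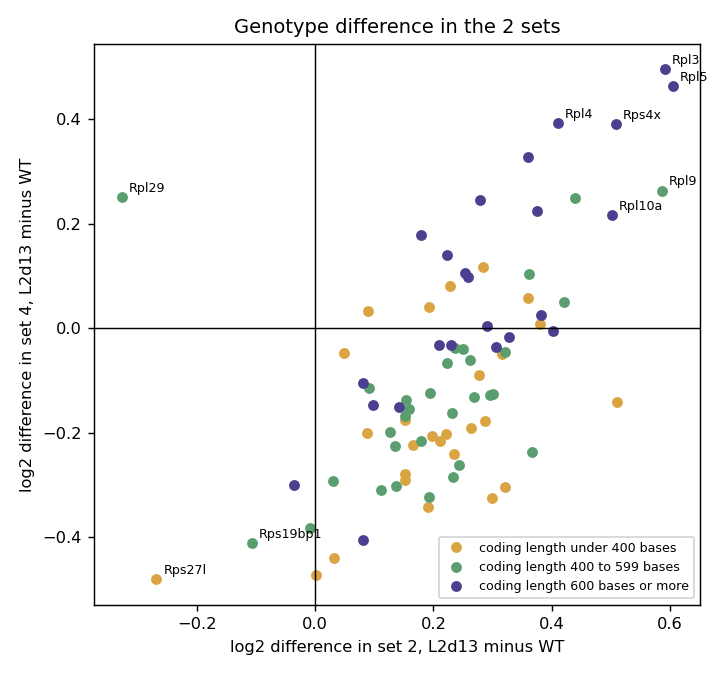
Log2 genotype difference (L2d13 minus WT) in set 2 (horizontal) and set 4 (vertical) for the 82 tested genes with a coding length, coloured by its class; the sets share no library. Rpl3 and Rpl5 lie at the top right, Rps27l at the bottom left, and Rpl29 alone at the upper left.

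Between the sets of L2d13 livers, 2 genes were called lower in set 4 (0 higher), or 2.41% of the 83, where 5.51% of all tested genes were called lower and 6.06% in either direction; 30 were lower and 0 higher at an unadjusted p under 0.05. The median log2 difference was -0.33, with 82 of the 83 genes below 0, against -0.15 for all tested genes, and -0.19 without L2d13 set 2 replicate 3. In the same comparison 5 of 7 tested stellate cell and fibroblast markers were called lower (median -0.72) and 2 of 6 endothelial markers (median -0.81), while 0 of 10 Kupffer and myeloid markers were called (median -0.67) and 0 of 6 hepatocyte markers. Endothelial sums were 31.3 to 69.9 FPKM in L2d13 set 4 livers, against 73.4 to 166 FPKM in L2d13 set 2 livers, with no overlap. Their part in the ribosomal protein difference was not tested. The small subunit protein Rps21 had 113 to 161.5 FPKM in L2d13 set 4 livers (median 129), against 155 to 473 FPKM in L2d13 set 2 livers (median 196). The groups overlapped by a few FPKM. Its log2 difference was -0.72 ± 0.20 (limma, adjusted p = 0.033). Without L2d13 set 2 replicate 3, limma called 0 of the 83 genes, and Rps21 was at -0.50 ± 0.15 (adjusted p = 0.064). Rps21 also missed the threshold without L2d13 set 2 replicate 1 or L2d13 set 4 replicate 7, 8, 10 or 12, at adjusted p-values of 0.060 to 0.073.

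Between the sets of WT livers, 0 of the 83 genes were called by limma (0 higher and 1 lower at an unadjusted p under 0.05; 0.190% of all tested genes were called). The median log2 difference was -0.01, with 41 genes above and 42 below 0, against a median of -0.08 for all tested genes, most of which were below 0.

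The 5 genes with the highest mean level, per length, were not called in the genotype comparison. Rps18 averaged 729 ± 216 FPKM in L2d13 livers and 713 ± 201 FPKM in WT livers, and Rpl28 658 ± 313 FPKM in L2d13 livers and 691 ± 239 FPKM in WT livers (SD, n = 12 each). Rpl10, a protein of late assembly, averaged 692 ± 106 FPKM in L2d13 livers and 646 ± 52.9 FPKM in WT livers. Rps2 averaged 612 ± 117 FPKM in L2d13 livers and 685 ± 105 FPKM in WT livers (log2 difference -0.17 ± 0.11, adjusted p = 0.23). Rplp1, given above, was the fifth. Without L2d13 set 2 replicate 3 the L2d13 means were 674 ± 107 FPKM for Rps18 and 574 ± 117 FPKM for Rpl28 (n = 11), with log2 differences of -0.05 and -0.22. The large subunit as a whole had a median log2 difference of 0.04 over 50 genes and the small subunit of 0.10 over 32.

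Among the paralogs, Rps27l and Rps27 were both short of the threshold, and the difference between them was not tested. Rps27l, a p53 target that replaces Rps27 in some ribosomes, had 129 to 205 FPKM in L2d13 set 2 livers (median 139), against 102 to 363 FPKM in WT set 2 livers (median 179). In set 4 it had 108 to 188 FPKM in L2d13 livers (median 134), against 155 to 233 FPKM in WT livers (median 189.9). Its log2 difference over both sets was -0.37 ± 0.15 (limma, adjusted p = 0.052), with the value without L2d13 set 2 replicate 3 given above. Rps27 itself averaged 429 ± 126 FPKM in L2d13 livers and 365 ± 58.7 FPKM in WT livers (0.21 ± 0.11, adjusted p = 0.16). Rps19bp1, at 14.5 ± 3.08 FPKM in L2d13 livers and 17.6 ± 3.88 FPKM in WT livers, had a log2 difference of -0.26 ± 0.11 (adjusted p = 0.086), while Rps19 had 0.20 ± 0.14 (adjusted p = 0.28).

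For the other paralogs the values of both genes of each pair were as follows. Rpl7l1, at 26.0 ± 2.73 FPKM in L2d13 livers and 23.2 ± 4.90 FPKM in WT livers, had a log2 difference of 0.18 ± 0.09, and Rpl7 0.18 ± 0.08. Rpl22l1 had 44.7 ± 11.1 FPKM in L2d13 livers and 45.4 ± 12.9 FPKM in WT livers, and Rpl22 64.6 ± 14.3 FPKM in L2d13 livers and 55.8 ± 8.92 FPKM in WT livers. Rpl36al averaged 297 FPKM in both genotypes (SD 69.5 in L2d13 and 54.7 in WT livers, n = 12 each), and Rpl36a 275 ± 65.6 FPKM in L2d13 livers and 267 ± 62.8 FPKM in WT livers. None of these was called.

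The tissue-restricted forms were near 0 in liver. Rpl10l, a testis form of the X-linked Rpl10, was at most 0.10 FPKM in any library, and Rpl39l, another testis form, at most 0.29 FPKM against a mean of 212 FPKM for Rpl39 in L2d13 livers and 210.5 FPKM in WT livers. The striated muscle form Rpl3l was at most 0.57 FPKM. Rpl32l and Rps23rg1 reached 1.10 and 0.87 FPKM, where Rpl32 averaged 375 FPKM in L2d13 livers and 345 FPKM in WT livers. Rps27rt was listed at 0 in 22 libraries, and at 13.3 FPKM in L2d13 set 4 replicate 12 and 13.97 FPKM in WT set 4 replicate 12.

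Some of these genes have near-identical copies in the table, and their level can be split between gene and copy. Of the 86 genes whose transcripts could be compared, 82 shared runs of 50 bases with another gene of GENCODE M21. The exceptions included Rpl39l, Rpl3l and Rps19bp1, and the median share was 34.0%. A shared run can be short and lie in an unrelated gene, so this is no count of copies. Copies were listed where at least 25% of their own runs lay in the gene and their mean reached 1 FPKM. That left copies of Rpl21, Rpl29, Rpl30, Rpl31, Rpl34, Rpl37, Rps6 and Rps27, the last with Rps27rt. Rps6, the substrate of S6 kinase, is the extreme case. The table gave Rps6 10.1 ± 5.85 FPKM in L2d13 livers and 10.6 ± 2.34 FPKM in WT livers, and its pseudogene Rps6-ps4 465 ± 70.0 FPKM in L2d13 livers and 422 ± 50.7 FPKM in WT livers (SD, n = 12 each). The 750 bases of Rps6-ps4 (chr2, 75191073 to 75191822, minus strand) match the Rps6 transcript with 0 mismatches, so reads within them cannot be told apart. The level of Rps6 in this table is therefore uncertain, and the sum of both had a log2 difference of 0.13 ± 0.08 (limma, adjusted p = 0.25).

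Rpl29 and its processed pseudogene Gm8210 showed an uneven division between libraries. The coding sequence of Rpl29 and Gm8210 differ at 3 of 483 bases counted from the A of the start codon, C72A, C300T and T423C (the base of Rpl29 first). The stretches of bases 42 to 102 are shown with the first of these in capitals.
Rpl29 (gene at chr9:106429539-106431567, plus strand): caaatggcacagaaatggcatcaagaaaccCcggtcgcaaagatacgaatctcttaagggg
Gm8210 (gene at chr1:43189156-43189638, plus strand): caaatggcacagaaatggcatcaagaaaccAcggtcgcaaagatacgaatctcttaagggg
Gm8210 had 119.6, 129 and 188 FPKM in L2d13 set 2 replicates 1, 2 and 3, and 83.9 and 88.65 FPKM in WT set 4 replicates 9 and 11. It was at most 1.80 FPKM in the other 19 libraries. In those 5 libraries it took 45.5% to 56.3% of the sum of both genes, against at most 0.960% in the others, and Rpl29 was 88.8 to 197 FPKM, against 160 to 283 FPKM. The sum was 177 to 385 FPKM in the 5 and 161 to 285 FPKM in the 19. The log2 genotype difference over both sets was -0.04 ± 0.18 for Rpl29 as listed and 0.07 ± 0.10 for the sum, and neither was called.

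**Figure D5:**
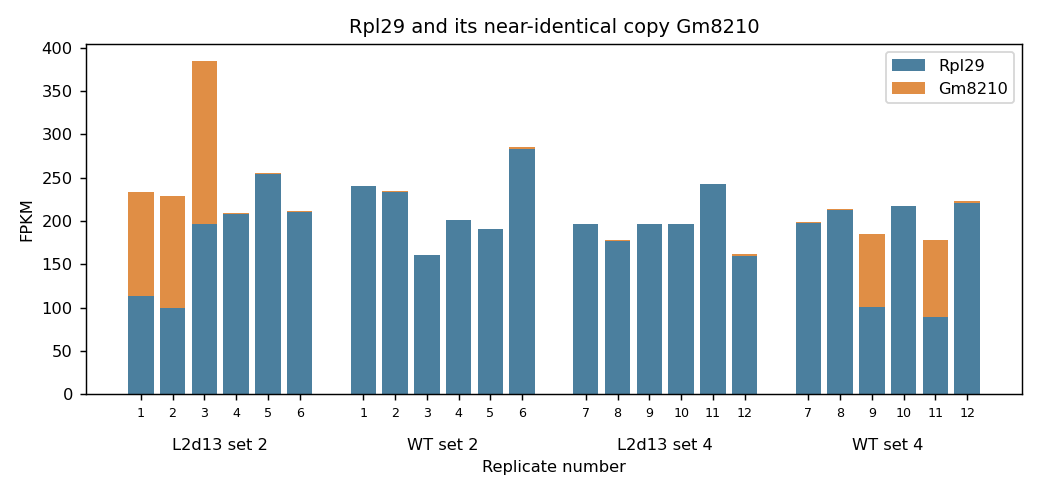
FPKM of Rpl29 (lower part of each bar) and Gm8210 (upper part) in each library, by group and replicate number. Gm8210 makes up 45.5% to 56.3% of the bar in 5 libraries and under 1% in the other 19.

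Other genes were also divided with copies. Rpl21 averaged 57.6 FPKM over all libraries beside 241 FPKM for its copy Gm10045, and Rpl37 averaged 95.8 FPKM beside 73.4 FPKM for Rpl37rt, which is protein-coding in RefSeq and a pseudogene in GENCODE. Rpl31 averaged 129 FPKM beside 51.1 FPKM for Rpl31-ps12, which ran from 16.4 to 173 FPKM. Gm7429, a copy of Rpl30, had 16.1 and 18.4 FPKM in L2d13 set 2 replicates 2 and 4 and at most 1.09 FPKM elsewhere. With each gene summed with its listed copies, the same 10 genes were called over both sets. None of those 10 has a listed copy, so their values could not change and this fit does not test them.

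The ribosomal proteins varied together. Over 24 libraries the median Pearson's r between pairs of the 83 genes was 0.78 on the log2 scale, with 77.3% of 3403 pairs above 0.5, and 0.70 without L2d13 set 2 replicate 3. These correlations share depth and composition of the same libraries and are a description. The first principal component of the 83 genes held 72.0% of their variance and the second 16.6%.

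Other gene lists of translation were set beside the ribosomal proteins over both sets, and beside the 25.9% of all genes called higher. Of 10 tested elongation and release factors, 7 were called higher and 0 lower (median log2 difference 0.39). The delivery factor Eef1a1 averaged 2646 ± 312 FPKM in L2d13 livers and 2011 ± 580.4 FPKM in WT livers (0.45 ± 0.13, limma, adjusted p = 0.011), and Eef1b2, its exchange factor, was higher by 0.40 ± 0.09, Eef1g by 0.35 ± 0.09 and the recycling factor Abce1 by 0.39 ± 0.09. Of 36 initiation factors, 22 were called higher and 0 lower (median 0.31), among them the eIF3 subunits Eif3e (0.37 ± 0.05) and Eif3d (0.46 ± 0.08), the exchange factor subunit Eif2b4 (0.52 ± 0.09) and Eif2s1 (0.50 ± 0.09). Fau and Rack1, subunits outside the symbol rule, had log2 differences of 0.15 ± 0.12 and 0.14 ± 0.08 and were not called.

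Of 19 genes outside the ribosome whose mRNAs are known to carry TOP tracts, some of which are also in the factor lists, 11 were called higher and 0 lower (median 0.25). The splicing regulator Hnrnpa1 led them, at 38.4 ± 6.77 FPKM in L2d13 livers and 23.3 ± 2.83 FPKM in WT livers (0.69 ± 0.08, limma, adjusted p = 2.4e-06). Of 22 tested regulators of the mTOR and TOP pathway, 4 were called higher (18.2%) and 1 lower (4.55%), at or under the shares of all genes (25.9% and 4.86%; median 0.12). Eif4ebp3, a repressor of cap-dependent initiation, averaged 266 ± 103 FPKM in L2d13 livers and 94.1 ± 36.8 FPKM in WT livers (1.51 ± 0.22, adjusted p = 2.1e-05). The kinase Mtor was higher by 0.38 ± 0.10 and its partner Rptor by 0.29 ± 0.07, as was Sesn1, an inhibitor of that pathway, by 0.49 ± 0.10. The gene called lower was Ddit4, another inhibitor, at 4.80 ± 3.33 FPKM in L2d13 livers and 15.6 ± 14.7 FPKM in WT livers (-1.23 ± 0.33, adjusted p = 0.0072).

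Of 50 genes of ribosome biogenesis, 15 were called higher (a share near the 25.9% of all genes) and 0 lower (median 0.16). They included Taf1b of the RNA polymerase I machinery, at 3.20 ± 0.62 FPKM in L2d13 livers and 1.51 ± 0.47 FPKM in WT livers (0.75 ± 0.09, limma, adjusted p = 5.2e-06), and the assembly factors Ltv1 (0.57 ± 0.12), Ddx56 (0.39 ± 0.08) and Pes1 (0.35 ± 0.08). Of 16 genes that act on the nascent chain, 6 were called higher and 0 lower (median 0.14), led by the signal recognition particle genes Srp54a (0.54 ± 0.08), Srp72 (0.40 ± 0.08), Srp54b (0.43 ± 0.10) and Srp68 (0.28 ± 0.08); Srp54a and Srp54b are near-identical copies, so their values are uncertain. Of 9 tested genes of the p53 response to ribosome stress, 2 were called higher and 2 lower (22.2% each, median -0.02). Gdf15 averaged 2.998 ± 1.5 FPKM in L2d13 livers and 13.9 ± 8.99 FPKM in WT livers (-1.69 ± 0.32, adjusted p = 0.00043), Cdkn1a was lower by a log2 difference of -1.13 ± 0.30, and Sesn1 and Ccng1 were higher (0.49 ± 0.10 and 0.34 ± 0.10).

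The mitochondrial ribosome and the proteasome were set beside the cytosolic ribosome as other large complexes. Of 78 mitochondrial ribosomal proteins 21 were called higher (26.9%, near the 25.9% of all genes) and 1 lower (median 0.13), with Mrps2 (0.55 ± 0.07), Mrpl17 (0.47 ± 0.08), Mrpl15 (0.45 ± 0.08) and Mrps18b (0.50 ± 0.10) first by p. Of 32 proteasome genes 26 were called higher and 0 lower (median 0.32), with Psmc3 (0.45 ± 0.06), Psmd6 (0.51 ± 0.08), Psmc1 (0.51 ± 0.08) and Psmc4 (0.42 ± 0.07) first. In the fit over all 24 libraries, the median of the cytosolic ribosomal proteins, 0.06, was below that of every one of these lists except the p53 response. The other lists were not refitted without the 6 libraries where a fragment was worth more, nor under another scaling. Without those 6 the ribosomal protein median was 0.09, against 0.06 for all tested genes. These shares are descriptions of the lists and were not tested against each other.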

How the data were processed

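Per the labels' protocols, liver RNA was prepared with TRIzol and read on a BGISEQ-500. The authors deposited 1 table of FPKM values for 18171 genes in 24 libraries. The submitters' processing notes name HISAT, Bowtie2, RSEM and build GRCm38.p5, with no versions. How reads shared by near-identical genes were divided is not given in the sources used here. FPKM holds no read counts, so the depth of each library is unknown and no counting interval is given.

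Gene IDs were matched to RefSeq symbols (18040 matched, 131 did not). Values were tested as log2(FPKM + 1) with limma 3.58.1 in R 4.3.3, with a mean trend, over the 10532 genes that reached 1 FPKM in 6 or more libraries. A fold change on this scale understates the change of low genes. Genotype over both sets was fitted with set as a term, and the other contrasts with 1 mean per group over all 24 libraries. Tests were two-sided, with Benjamini-Hochberg adjustment over all tested genes of a contrast, and the fit was tested on simulated data. The FPKM that a fragment adds was estimated from low genes. Copies and coding lengths came from GENCODE M21 and promoters from RefSeq (GRCm38.p6).

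Named genes were, among those called, the 10 largest rises and falls over both sets and the 5 in each other contrast, the 5 highest and 5 lowest mean levels, the stalk proteins and Rpsa, the paralogs with the genes they are named after, and the 4 smallest p-values of each pathway list. Genes named for their copies were chosen after their values were seen, and some genes are not reported here. The members, gene lists and tests were chosen with earlier results of these data known.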

Additional observations from a re-analysis of the deposited data

Results flagged for a closer look

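Of 172 sets of 6 libraries examined (41 ribosomal protein genes and 2 sums, in each group), 34 had a highest or lowest library whose gap to the next exceeded Dixon's 95% critical share of the range; chance gives about 1 in 20. L2d13 set 2 replicate 3 was the highest of its group in 25 of the 34. Its summed level was 47413 FPKM and its percent of all FPKM 7.45. Of the large subunit it had Rpl9 at 430.5, Rpl10a at 547.6, Rpl22 at 106.98, Rpl28 at 1587, Rpl32 at 823.7, Rpl36a at 443.6, Rpl36al at 463.0, Rpl37 at 212.9 and Rpl39 at 373.6 FPKM. The muscle form Rpl3l was at 0.57 FPKM. The stalk genes Rplp0, Rplp1 and Rplp2 were at 471.3, 1702 and 790.2 FPKM. Of the small subunit it had Rps3a1 at 580.6, Rps4x at 447.6, Rps6 at 26.3, Rps18 at 1333, Rps19 at 531.4, Rps21 at 472.9, Rps27 at 800.3, Rps27a at 495.6, Rps27l at 205.2 and Rpsa at 446.2 FPKM.

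The other 9 were spread over 5 libraries. L2d13 set 4 replicate 11 was highest of its group for Rpl28 (853.6 FPKM), Rpl37rt (106.0 FPKM) and Rps2 (829.5 FPKM). L2d13 set 4 replicate 12 was highest for Rps23rg1 (0.49 FPKM) and for Rps27rt (13.3 FPKM), and WT set 4 replicate 12 was highest for Rps27rt (13.97 FPKM). WT set 2 replicate 6 was lowest for Rpl3 (68.3 FPKM) and highest for Rps27l (362.9 FPKM). WT set 4 replicate 7 was highest for Rpl10l (0.05 FPKM).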

How the results depend on the processing

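Beside 10 higher and 0 lower over both sets, the calls higher were 2 under median-of-ratios scaling, 24 with every library scaled to one FPKM sum, 2 with only the libraries within 2% of the median FPKM per fragment, 3 without the 6 libraries above it, 4 without L2d13 set 2 replicate 3 under median-of-ratios scaling and 2 without the 6 under that scaling. The calls lower were 1 with no filter, 1 with a filter of 5 FPKM, 3 under median-of-ratios scaling, 2 under quantile normalization, 2 with one FPKM sum that leaves out Mup genes, 1 within 2%, and 9 without L2d13 set 2 replicate 3 under median-of-ratios scaling. In set 2 (6 higher) they were 3 with no filter, 0 under median-of-ratios scaling, 1 under quantile normalization, 23 with one FPKM sum, 0 without L2d13 set 2 replicate 3 under median-of-ratios scaling, and 1 without the 6 under that scaling. In set 4 (0 either way) 2 were higher with one FPKM sum and 1 with the sum without Mup genes, and lower were 2 under median-of-ratios scaling, with or without L2d13 set 2 replicate 3, 1 under quantile normalization and 1 with the sum without Mup genes. Between the sets of L2d13 livers (2 lower) the count was 1 with a pseudocount of 0.1, 1 with no filter, 1 with a filter of 5 FPKM, 0 under median-of-ratios scaling, 1 under quantile normalization, 8 with one FPKM sum, 0 with the sum without Mup genes, 8 within 2%, 5 without the 6, and 0 under median-of-ratios scaling without L2d13 set 2 replicate 3 or without the 6. The calls over all tested genes moved too. Over both sets 2730 of 10532 were higher as reported, 1215 under median-of-ratios scaling and 4059 with one FPKM sum. Without the 6 libraries 1542 of 10320 were higher. Lower were 512 of 10532 as reported and 1727 of 10459 without L2d13 set 2 replicate 3 under median-of-ratios scaling. In set 2, 1364 were higher as reported and 2058 with one FPKM sum. Between the sets of L2d13 livers 580 were lower as reported and 854 with one FPKM sum. The cause of these changes was not tested.

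With 1 library left out at a time, the counts were 9 to 10 higher and 0 to 2 lower over both sets, 2 to 9 higher in set 2, 0 to 4 higher and 0 to 1 lower in set 4, and 0 to 3 lower between the sets of L2d13 livers. Of 1367 values of 36 named genes, 1287 kept direction and side of the threshold, 29 passed it only in the alternative, 50 lost it, and 1 reversed (Rps3a1, -0.0068 within 2%). Replicate numbers are shared by the genotypes within each set. The 12 correlations of same-numbered libraries ran from -0.60 to 0.26, with 4 over 0.1 and 1 library closest to its own number. They gave no sign that the numbers pair the libraries, but single outlying libraries weigh on them and they cannot exclude a pairing. With a replicate block, 7 genes were called higher over both sets and 0 in set 2. The settings without the 6 libraries, without L2d13 set 2 replicate 3 under another scaling, and with copies summed were chosen after seeing the data.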
